A study of Mus musculus with 6 samples.

Results

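Serotonin, acetylcholine and histamine act on blood vessels through receptors that cross the membrane and couple to G proteins. The genes described here are the 10 non-adrenergic amine receptors of blood vessels, chosen by name as *Htr1b*, *Htr1d*, *Htr2a*, *Htr2b*, *Htr4* and *Htr7* for serotonin, *Chrm2* and *Chrm3* for acetylcholine at muscarinic receptors, and *Hrh1* and *Hrh2* for histamine. All 10 were found by NCBI gene identifier among the 18191 genes of the table. They were measured by RNA-seq of the whole aorta of male mice, with 3 libraries of wild type (WT) mice and 3 libraries of mice with 1 of the copies of *Npr1* disrupted by CRISPR-Cas9 (*Npr1+/-*), numbered 1 to 3 within each genotype. *Npr1* encodes the receptor of atrial and brain natriuretic peptide, and the labels name no cell type to which its disruption was limited. Strain, age and whether aortas were pooled are not given in the sources used here. The labels state no pairing of the numbers between the genotypes. The labels do not say outright that each library came from a separate mouse, so that the p-values measure the spread between libraries.

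The receptors sort by the G protein they use. Receptors coupled to Gq (*Htr2a*, *Htr2b*, *Chrm3* and *Hrh1*) release calcium from internal stores through phospholipase C beta, which contracts smooth muscle, while in endothelium the same calcium activates nitric oxide synthase and relaxes the vessel. Receptors coupled to Gs (*Htr4*, *Htr7* and *Hrh2*) raise cyclic AMP and relax smooth muscle, and those coupled to Gi (*Htr1b*, *Htr1d* and *Chrm2*) lower it. In blood, serotonin is carried mainly by platelets, and histamine is released in tissue mainly by mast cells.

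The libraries held between 13510970 and 16664343 estimated counts. The smallest signal considered was 3 counts, which corresponds to between 0.180 and 0.222 CPM, which is counts scaled to library size. The aortas carried the RNA of smooth muscle, with 6 marker genes summing to between 4905 and 14855 FPKM, which is counts scaled by both transcript length and library size. The libraries numbered 1 stood apart, with the lowest smooth muscle sums (8451 in WT 1 and 4905 in *Npr1+/-* 1, against at least 13318) and the highest sums of 6 fat markers (2720 and 3414, against at most 959). In *Npr1+/-* 1, 11 markers of sympathetic neurons summed to 329 FPKM, against 67.9 to 82.3 in the other libraries, and every marker was highest there. The same library held the most Schwann cell RNA, with 96.3 FPKM over 5 markers against at most 22.3. In whole tissue, fewer cells of a type and less RNA per cell cannot be told apart. *Npr1* itself had 453, 611 and 633 CPM in WT 1 to 3 compared with 295, 452 and 527 in *Npr1+/-* 1 to 3. The *Npr1+/-* library was lower within each replicate number, although the genotypes overlapped.

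*Htr1b* was by far the most abundant of the 10 receptors in the aorta. Per length, it reached 7.36, 13.96 and 21.90 FPKM in WT 1 to 3, a mean level above that of 72.5% of all genes in WT. It made up between 56.9% and 93.7% of the summed FPKM of the 10 receptors in a library. Its lowest library, at 6.58 FPKM, was above the highest library of any other receptor, which was 2.74 FPKM of *Htr2b* in *Npr1+/-* 1. Next in order of the mean level in WT came *Htr2a* (0.837 FPKM), *Htr2b* (0.373), *Hrh2* (0.270), *Chrm2* (0.173), *Hrh1* (0.147), *Chrm3* (0.127), *Htr1d* (0.0700), *Htr7* (0.0300) and *Htr4* (0.0200). Apart from *Htr1b*, neighbours in this order overlapped across the libraries and were not set apart. The median gene of the table had 4.67 FPKM in WT, so that 9 of the 10 receptors lay below it.

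**Figure D1:**
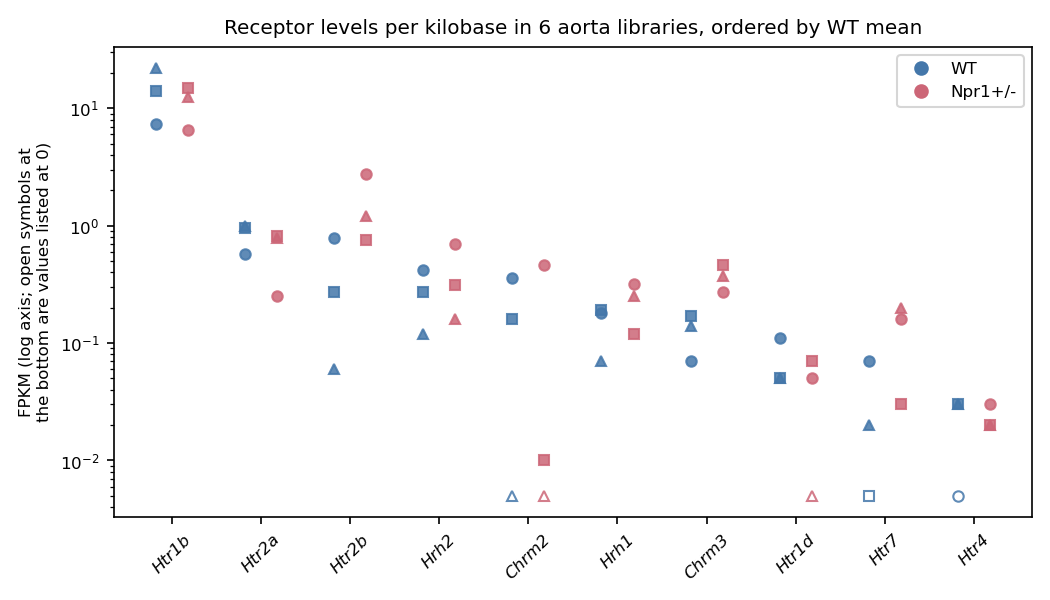
FPKM of the 10 receptors in 6 aorta libraries on a log axis, ordered by the WT mean (blue, WT; red, *Npr1+/-*; circle, square and triangle, replicates 1, 2 and 3; open symbols, values listed at 0). *Htr1b* lies above all others in every library, between 6.58 and 21.90 FPKM, and the other receptors overlap with their neighbours.

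By ligand, the 6 serotonin receptors summed to 15.7 ± 7.09 FPKM (SD, n = 3) in WT and 13.7 ± 3.55 FPKM (SD, n = 3) in *Npr1+/-* aortas, most of it *Htr1b*. The muscarinic receptors *Chrm2* and *Chrm3* together had 0.43, 0.33 and 0.14 FPKM in the WT libraries and 0.73, 0.47 and 0.37 FPKM in the *Npr1+/-* libraries, and the histamine receptors averaged 0.417 ± 0.208 and 0.620 ± 0.347 FPKM (SD, n = 3 each). Without *Htr1b*, the sum over the 9 other receptors lay between 1.48 and 2.57 FPKM in WT and between 2.60 and 4.98 FPKM in *Npr1+/-* libraries. The highest of these sums was that of *Npr1+/-* 1, while 2.57 in WT 1 and 2.60 in *Npr1+/-* 2 were nearly equal. Of these sums, *Htr2b* alone made up 0.79, 0.27 and 0.06 FPKM in WT 1 to 3. In *Npr1+/-* 1 to 3 it made up 2.74, 0.76 and 1.20 FPKM. The separation of the sums thus rested on *Htr2b* and is not a trait of the 9 receptors together. The 0.06 FPKM of *Htr2b* in WT 3 is also not on the same footing as its other values, as described below. How often sums of other genes are apart in this way was not tested.

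The question of the design is which genes differ when *Npr1* is reduced. With edgeR's quasi-likelihood test, which was run on the 13938 genes that passed a filter on low counts, calling a gene took a Benjamini-Hochberg adjusted p under 0.05 together with a log2 fold change of 0.5 or more in size. None of the 10 receptors was called, and 0% of all tested genes were called. Of the 10, 7 passed the filter and 3 (*Htr1d*, *Htr4* and *Htr7*) did not. The adjusted p was 0.999 for each of the 7 from edgeR. At an unadjusted p under 0.05 in the same test, 2 of the 7 were found, *Htr2b* and *Chrm3*, both higher in *Npr1+/-* aortas, where 1.88% of all tested genes were found in this direction, and 2.96% in either. When the fit took the replicate number as a block, the same 2 were found and 7.36% of all tested genes were found in this direction, and 12.4% in either. Both receptors passed the filter through all 3 *Npr1+/-* libraries and 1 WT library. Their place among the 7 thus rested on the genotype in which they were higher. The 2 of 7 cannot be weighed against these shares. In total, 412 genes had an unadjusted p under 0.05 without the block and 1735 with it, and none was called by edgeR either way. DESeq2 called 15 genes (0.0832% of those it tested) and none of the receptors.

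**Figure D2:**
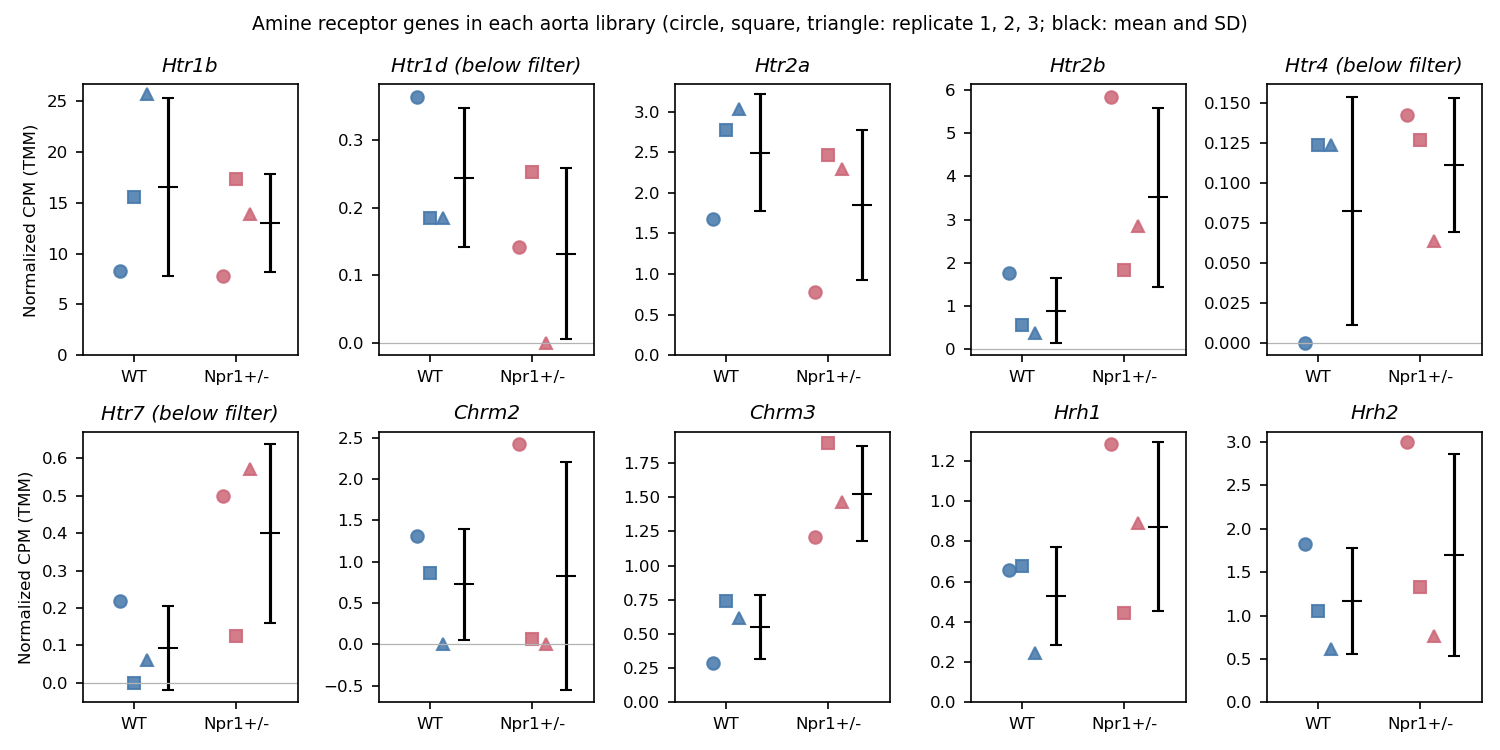
CPM normalized between libraries for each of the 10 receptors (points, 3 WT and 3 *Npr1+/-* libraries; circle, square and triangle, replicates 1, 2 and 3; black, mean and SD; each panel has its own linear axis). The genotypes are apart for *Htr2b* and *Chrm3* and overlap for the other receptors, of which *Htr1d*, *Htr4* and *Htr7* were below the filter on low counts.

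*Htr2b* encodes a Gq-coupled serotonin receptor that is known from endothelium and from the heart valves. The gene spans 86099026 to 86111970 of chromosome 1 (GRCm38, minus strand) and has 3 coding exons. It had 24, 9 and 6 estimated counts in WT 1 to 3, against 82, 29.12 and 44.96 in the *Npr1+/-* libraries of the same order. After scaling between libraries, its CPM was 1.75, 0.555 and 0.371 in WT and 5.84, 1.84 and 2.86 in *Npr1+/-* aortas. All 3 *Npr1+/-* libraries were above all 3 WT libraries, though *Npr1+/-* 2 exceeded WT 1 only narrowly. Of the 7 tested receptors, *Htr2b* and *Chrm3* were apart in this way, as were 3.90% of all tested genes, and no receptor was lower without overlap, as 3.58% of all tested genes were. Both passed the filter through the genotype in which they were higher, so that their number cannot be weighed against these shares. Within replicate numbers 1, 2 and 3, the *Npr1+/-* library had 3.34, 3.30 and 7.72 times the CPM of the WT library.

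For *Htr2b*, edgeR gave a log2 fold change of 1.99 ± 0.70 (standard error), with an unadjusted p = 0.0259 and an adjusted p = 0.999. With its log2 CPM, an exact permutation test (two-sided) gave p = 0.1, the smallest that 3 libraries against 3 allow. The unadjusted p from edgeR rose to 0.0800 without WT 2, 0.0732 without WT 3 and 0.0790 without *Npr1+/-* 1, with log2 fold changes of 1.74, 1.61 and 1.42. Without WT 1, the log2 fold change was 2.91 (unadjusted p = 0.00575 from edgeR). Without both libraries numbered 1, a setting added after the data were seen, the log2 fold change was 2.32 (unadjusted p = 0.0028, adjusted p = 0.228 from edgeR). DESeq2 with the replicate block, also added after the data were seen, called *Htr2b* (log2 fold change 2.10, adjusted p = 0.0450), and it called 1.98% of the genes it could adjust.

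*Htr2b* lies wholly inside *Psmd1*, a gene of the proteasome on the plus strand, and the exons of the genes share 252 bases in GENCODE M21. *Psmd1* was much more abundant, with 131 ± 1.96 CPM (SD, n = 3) in WT and 140 ± 3.13 CPM (SD, n = 3) in *Npr1+/-* aortas. It was 1.09, 1.08 and 1.04 times as high in the *Npr1+/-* library of each number, against at least 3.30 times for *Htr2b*. Whether the counting used strand is not given in the sources used here, so that reads of the shared bases cannot be told apart. The ratio of counts to FPKM gave *Htr2b* an effective length of 6001 bases in WT 3 and of 2070 to 2446 bases in the other libraries, so that its 0.06 FPKM in WT 3 is not on the same footing. As for every gene, the main test of *Htr2b* used counts rather than FPKM. By FPKM the genotypes of *Htr2b* overlapped, with 0.79 in WT 1 and 0.76 in *Npr1+/-* 2, so that their separation holds for CPM only.

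*Chrm3* encodes the muscarinic receptor through which acetylcholine releases nitric oxide from endothelium and contracts many smooth muscles. The gene spans 9875486 to 10360847 of chromosome 13 (GRCm38, minus strand), and 1 exon encodes the whole protein. It had 4, 12 and 10 estimated counts in WT 1 to 3, against 17, 30 and 23 in *Npr1+/-* 1 to 3. The normalized CPM was 0.292, 0.740 and 0.618 in WT and 1.21, 1.90 and 1.46 in *Npr1+/-* aortas. The genotypes did not overlap, with 0.740 CPM in the highest WT library and 1.21 CPM in the lowest *Npr1+/-* library. In the pairs numbered 1, 2 and 3, the *Npr1+/-* library had 4.15, 2.56 and 2.37 times the CPM of the WT library.

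For *Chrm3*, edgeR gave a log2 fold change of 1.44 ± 0.44 (standard error), with an unadjusted p = 0.0141 and an adjusted p = 0.999. When single libraries were left out, it stayed between 1.17 and 1.71, with an unadjusted p between 0.0162 and 0.0478 from edgeR. The exact two-sided permutation test gave p = 0.1, again the smallest possible. *Chrm3* and *Htr2b* each passed the filter on low counts through all 3 *Npr1+/-* libraries and 1 WT library, so that their place among the tested genes rested on the genotype in which they were higher. The 4 counts of *Chrm3* in WT 1 are barely above the smallest signal considered.

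**Figure D3:**
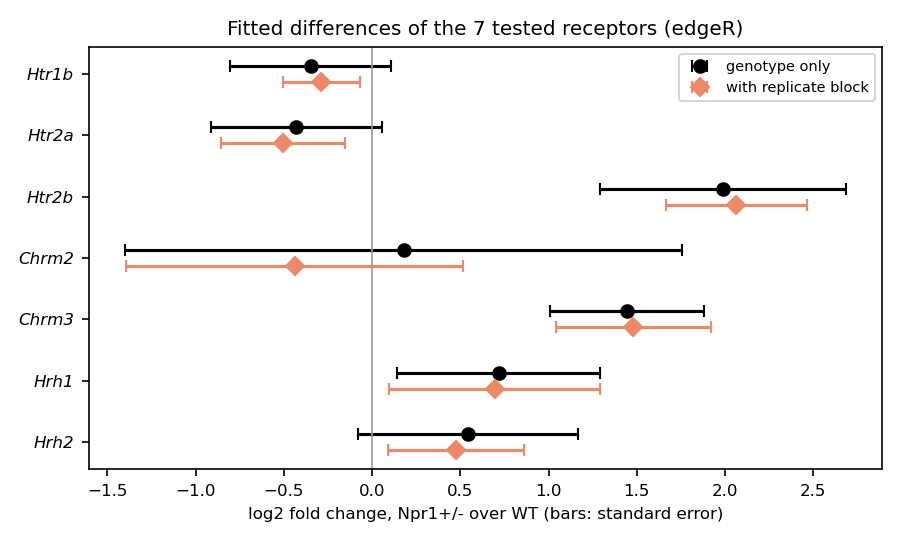
Fitted log2 fold change of *Npr1+/-* over WT with its standard error for the 7 tested receptors (black circles, genotype only; orange diamonds, with the replicate number as a block). *Htr2b* (1.99) and *Chrm3* (1.44) lie farthest to the right, *Chrm2* has the widest error, and none passed the adjusted threshold.

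Markers of endothelium and of fat also had positive log2 fold changes, and they were not the only cell types that did. The FPKM of 7 endothelial markers (*Cdh5*, *Pecam1*, *Tie1*, *Tek*, *Kdr*, *Vwf* and *Nos3*) summed to between 126 and 210 in WT and between 240 and 327 in *Npr1+/-* libraries. All 7 had a positive log2 fold change, with a median of 0.62 against 0.01 over all tested genes. For 4 of the 7 the genotypes did not overlap, with the *Npr1+/-* libraries higher as for 3.90% of all tested genes, and none was at 0 in any library. *Nos3*, the endothelial nitric oxide synthase, had a log2 fold change of 1.19 (standard error 0.19, unadjusted p = 0.000547, adjusted p = 0.999 from edgeR), and DESeq2 called it (adjusted p = 0.000891). With the replicate block, DESeq2 called 4 of the 7, which were *Nos3*, *Pecam1* (adjusted p = 0.0388), *Tie1* (adjusted p = 0.0126) and *Vwf* (adjusted p = 0.0019). The 6 fat markers also had positive log2 fold changes, with a median of 0.66, and the genotypes overlapped for all 6. Their FPKM summed to between 431 and 2720 in WT and between 889 and 3414 in *Npr1+/-* libraries, and none was at 0 in any library. DESeq2 with the replicate block called 3 of them (*Adipoq*, *Cidec* and *Plin1*), and DESeq2 without it called none. All tested markers of Schwann cells (5), sympathetic neurons (4), mast cells (5) and mesothelium and epithelium (2) were positive too. Their medians were 1.22, 3.86, 0.22 and 1.26. By FPKM, all 11 neuron, 5 Schwann cell, 7 endothelial and 6 fat markers were highest in *Npr1+/-* 1. The neuron markers summed to 69.0 and 70.1 FPKM in *Npr1+/-* 2 and 3, against 67.9 to 82.3 in WT. The Schwann cell markers summed to 13.1 and 22.3 FPKM there, against 8.24 to 14.6 in WT. None was positive of 6 smooth muscle, 4 platelet and 4 macrophage markers. Of fibroblast markers 1 of 5 was positive, of cardiac muscle 3 of 6 and of skeletal muscle 2 of 3. The part of endothelial, fat or other cell type RNA in the values of *Htr2b* and *Chrm3* was not tested.

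The 250 bases before the start of *Htr2b* and of *Chrm3* are shown because these receptors had an unadjusted p under 0.05 from edgeR. They were thus picked from these data, and they did not follow the same order of libraries. Within each genotype, the library numbered 1 had the highest CPM of *Htr2b* and the lowest of *Chrm3*. The sequences were taken from RefSeq on GRCm38.p6, where *Htr2b* has the interval chr1:86111981-86112230 and *Chrm3* the interval chr13:10360804-10361053, both read on the minus strand. GENCODE M21 starts *Chrm3* at 10360847, inside this interval. The last part of the *Chrm3* sequence, with its last marked match, thus lies within the gene as annotated there. Capitals mark TTCC on either strand, the core of binding sites of ETS factors.
*Htr2b*: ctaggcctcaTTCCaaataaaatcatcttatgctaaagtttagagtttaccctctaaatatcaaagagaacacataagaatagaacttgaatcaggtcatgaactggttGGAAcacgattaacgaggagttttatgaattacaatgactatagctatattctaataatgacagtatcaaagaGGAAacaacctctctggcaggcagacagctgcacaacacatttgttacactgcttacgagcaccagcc
*Chrm3*: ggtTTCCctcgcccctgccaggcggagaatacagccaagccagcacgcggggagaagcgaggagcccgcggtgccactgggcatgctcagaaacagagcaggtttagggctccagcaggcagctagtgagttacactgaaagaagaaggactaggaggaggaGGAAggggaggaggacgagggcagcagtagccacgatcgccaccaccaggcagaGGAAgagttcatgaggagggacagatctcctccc
The *Htr2b* sequence holds 37.6% G and C and 3 CpG dinucleotides, and the *Chrm3* sequence 61.2% and 10. Each holds TTCC 3 times, as do 93.45% of 32851 RefSeq promoter windows at least once, so that the match is common. Neither holds TATAAA (12.37% of the windows), CCAAT (33.85%), GGGCGG (32.74%), GATAA (22.58%) or a CArG box (1.47%), all searched on both strands. A match or its absence says nothing about whether a factor bound.

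*Htr1b* and *Htr2a*, the serotonin receptors best known for contracting arteries, had lower mean values in *Npr1+/-* aortas, and the genotypes overlapped. *Htr1b* (chromosome 9 of GRCm38, 81628291 to 81633828, minus strand, 1 coding exon) had 8.31, 15.6 and 25.8 CPM in WT 1 to 3 and 7.77, 17.3 and 13.9 CPM in *Npr1+/-* 1 to 3. The lowest value of each genotype was that of the library numbered 1, and the span within WT was wider than the difference between the genotypes. Its log2 fold change of -0.35 ± 0.46 (standard error) had an adjusted p of 0.999 from edgeR, and it turned to 0.12 without WT 3. An antisense transcript, *D430036J16Rik*, shares 852 bases with its exons.

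*Htr2a* (chromosome 14, 74640840 to 74709494, plus strand, 3 coding exons) had 1.68, 2.78 and 3.03 CPM in WT 1 to 3 and 0.784, 2.47 and 2.29 CPM in *Npr1+/-* 1 to 3. Within each number the *Npr1+/-* library was the lower of the pair, at 0.467, 0.889 and 0.756 times the WT library. Of the tested genes, 16.9% were likewise lower within all 3 numbers. Its log2 fold change of -0.43 ± 0.49 (standard error) had an adjusted p of 0.999 from edgeR, and it was -0.07 without *Npr1+/-* 1. In both receptors the libraries numbered 1, with the least smooth muscle RNA, were low. The part of smooth muscle RNA in their values was not tested.

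In order of the Htr2 receptors within a library, *Htr2a* had more FPKM than *Htr2b* in WT 2, WT 3 and *Npr1+/-* 2, and less in WT 1, *Npr1+/-* 1 and *Npr1+/-* 3. The values were 0.95 against 0.27 in WT 2 and 0.25 against 2.74 in *Npr1+/-* 1. In WT 3, the FPKM of *Htr2b* is not on the same footing as its other values, as described above. Which of the pair was more abundant thus differed between libraries of the same genotype.

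*Chrm2*, a Gi-coupled muscarinic receptor best known from the heart, was detected in some libraries of each genotype and not in others. It had 18, 14 and 0 estimated counts in WT 1 to 3, and 34, 1 and 0 in the *Npr1+/-* libraries 1 to 3. The log2 fold change was 0.18 with a standard error of 1.58 (adjusted p = 0.999 from edgeR), and it was -4.18 without *Npr1+/-* 1. Its gene lies on chromosome 6 from 36388084 to 36528414, and a non-coding gene on the other strand, *9330158H04Rik*, shares 142 bases with its exons. The 7 markers of cardiac muscle summed to between 17.5 and 28.3 FPKM in WT and between 27.9 and 36.4 in *Npr1+/-* libraries, and they did not share 1 order of libraries. *Actc1*, the cardiac actin, had 2.35, 2.22 and 0.75 FPKM in WT and 19.17, 6.66 and 13.01 in *Npr1+/-* aortas, and DESeq2 called it. *Tnnt2*, the cardiac troponin T, had 14.93, 7.21 and 7.63 FPKM in WT and was lowest in *Npr1+/-* 1 (5.58). *Myh6*, the heavy chain of atrial myosin, was highest in *Npr1+/-* 1 (0.99) and next in WT 1 (0.56). The part of cardiac RNA in the values of *Chrm2* was not tested.

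The histamine receptors were low in every library. *Hrh1* (chromosome 6, 114397936 to 114483296), which couples to Gq, had 0.656, 0.679 and 0.247 CPM in WT 1 to 3 and 1.28, 0.443 and 0.890 CPM in *Npr1+/-* 1 to 3. *Hrh2* (chromosome 13, 54192129 to 54236180), which couples to Gs, had 1.82, 1.05 and 0.618 CPM in WT and 2.99, 1.33 and 0.763 CPM in *Npr1+/-* aortas. The genotypes overlapped for both, with log2 fold changes of 0.72 (standard error 0.58) and 0.54 (standard error 0.62) and an adjusted p of 0.999 from edgeR. *Hrh2* was higher in the *Npr1+/-* library of each number, at 1.64, 1.27 and 1.23 times the WT library, which 17.5% of the tested genes were as well. Without *Npr1+/-* 1, the log2 fold change of *Hrh2* was -0.14. An antisense transcript, *Gm16578*, shares 145 bases with the exons of *Hrh2*.

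*Htr1d*, *Htr4* and *Htr7* stayed near or below 3 counts in most libraries. *Htr7* (chromosome 19 of GRCm38, 35958734 to 36057507), a Gs-coupled receptor that relaxes smooth muscle, had 2.90, 0 and 1 estimated counts in WT 1 to 3, against 6.99, 2 and 9.40 in *Npr1+/-* 1 to 3. Rounded to whole counts, the sums were 4 in WT (95% exact Poisson interval 1.09 to 10.2, counting error only) and 18 in *Npr1+/-* libraries (10.7 to 28.5, counting error only). The genotypes overlapped in CPM, and the exact two-sided permutation test gave p = 0.2. *Htr1d* (chromosome 4, 136423524 to 136444398), a close relative of *Htr1b*, had a sum of 10 counts in WT and 6 in *Npr1+/-* libraries. *Htr4* (chromosome 18, 62324204 to 62496577), a Gs-coupled receptor best known from gut and heart, had 4 and 5 counts. No difference between the genotypes was called for these 3 receptors when all genes were kept in the fit, and for *Htr7* the libraries of each genotype differed among themselves.

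The other receptors of the same families had at most 0.29 FPKM in any library, apart from *Chrm1* (0.40 at most), *Htr3a* and *Htr3b*. Of 13 other receptors, 11 were in the table, and 1 of them, *Chrm1*, passed the filter (log2 fold change 1.01, standard error 0.55, adjusted p = 0.999 from edgeR). *Htr3a*, the subunit that forms the serotonin-gated ion channel of neurons, had 16.72 FPKM in *Npr1+/-* 1, was listed at 0 in the 3 WT libraries, and had 0.09 and 0.03 FPKM in *Npr1+/-* 2 and 3. Its partner *Htr3b* had 2.87 FPKM in *Npr1+/-* 1 and was listed at 0 in the other 5 libraries. In *Npr1+/-* 1, *Htr3a* thus stood above all 10 vascular receptors. Their values moved with the neuronal markers of that library, among them *Th*, the enzyme that begins catecholamine synthesis, at 38.97 FPKM against at most 0.07 elsewhere. Their part in the values of *Htr3a* and *Htr3b* was not tested.

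**Figure D4:**
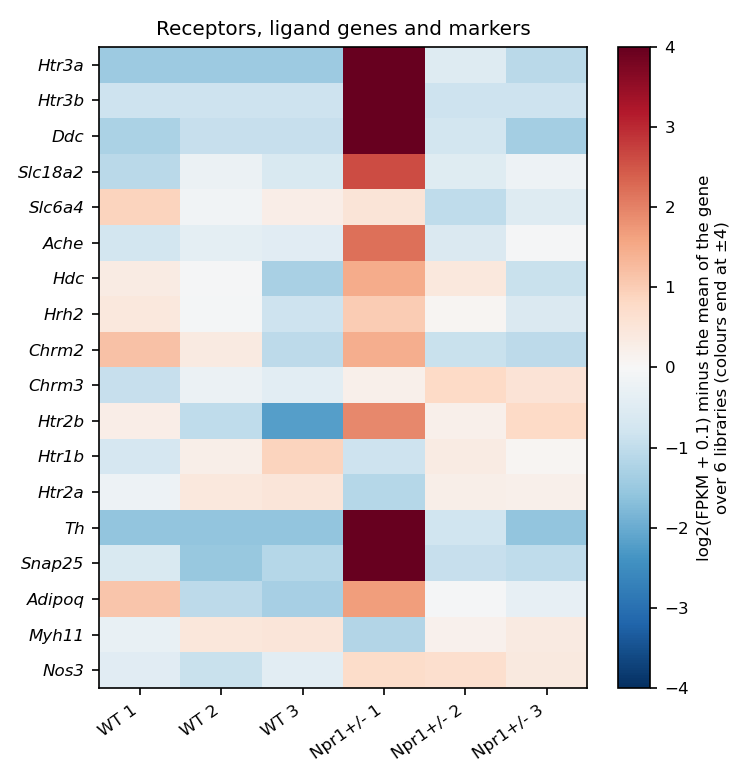
log2(FPKM + 0.1) of receptors, ligand genes and markers in 6 libraries, minus the mean of each gene over the libraries (red, higher; blue, lower; colours end at 4). *Htr3a*, *Htr3b*, *Ddc*, *Th* and *Snap25* are high in *Npr1+/-* 1 alone, while *Nos3* and *Chrm3* are higher in all 3 *Npr1+/-* libraries than in WT.

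Genes that make, store and remove the ligands were taken from lists chosen by name. Of 10 genes of serotonin handling, 5 were tested and none was called or had an unadjusted p under 0.05 in edgeR. The monoamine oxidases, which degrade serotonin, were the most abundant of them, with *Maob* at 34.68, 23.79 and 25.14 FPKM in WT 1 to 3 and *Maoa* at 11.50, 12.30 and 12.30. *Tph1*, which makes serotonin outside the brain, had at most 0.63 FPKM in any library. *Slc6a4*, the serotonin transporter, had 1.55, 0.71 and 0.96 FPKM in WT 1 to 3, and 1.18, 0.34 and 0.52 in the *Npr1+/-* libraries 1 to 3. It was lower within each number, with a log2 fold change of -0.64 (standard error 0.55, adjusted p = 0.999 from edgeR).

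The vesicular transporter *Slc18a2* and the decarboxylase *Ddc*, which serve catecholamines as well as serotonin, were high in 1 library. *Slc18a2* had 10.08 FPKM in *Npr1+/-* 1 and between 0.68 and 1.33 in the other libraries, and *Ddc* had 15.25 FPKM there and at most 0.16 elsewhere. For *Slc18a2*, the log2 fold change of 2.10 ± 0.91 (standard error; adjusted p = 0.999 from edgeR) dropped to 0.27 without that library.

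For acetylcholine, *Chat*, which makes it, had at most 0.04 FPKM in any library, and the vesicular transporter *Slc18a3* was listed at 0 outside *Npr1+/-* 1. *Ache*, which breaks it down, had 9.67 FPKM in *Npr1+/-* 1 and between 1.16 and 1.95 elsewhere. Its log2 fold change of 1.46 (standard error 0.70, adjusted p = 0.999 from edgeR) dropped to 0.17 without that library. *Bche*, the cholinesterase of plasma, lay between 5.13 and 9.31 FPKM in the 6 libraries.

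*Hdc*, which makes histamine, had 2.46, 1.84 and 0.72 FPKM in WT 1 to 3 compared with 5.52, 2.63 and 1.00 in *Npr1+/-* 1 to 3. It was higher in the *Npr1+/-* library of each number and overlapped between genotypes (log2 fold change 0.91, standard error 0.68, adjusted p = 0.999 from edgeR). *Hnmt*, which methylates and inactivates histamine, lay between 5.34 and 12.37 FPKM.

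Genes that carry the signal onward from the receptors were measured at widely different levels. The Gq subunits *Gna11* and *Gnaq* lay between 45.85 and 58.79 FPKM and between 14.54 and 19.13 FPKM, and the Gi subunit *Gnai2* between 217.39 and 320.96. None of the 14 Gq genes, 11 Gs genes, 7 Gi genes and 6 genes of receptor desensitization was called. Over all 48 tested genes of the lists, the median log2 fold change was 0.09, against 0.01 over all tested genes, and 28 of the 48 were positive. At an unadjusted p under 0.05 from edgeR, 2 of the 48 were found, both higher in *Npr1+/-* aortas (1.88% of all tested genes), and with the replicate block 5 were higher and 5 lower (7.36% and 5.09% of all tested genes). *Plcb2*, among those found higher, passed the filter on low counts through the *Npr1+/-* libraries. The numbers found higher thus cannot be weighed against these shares.

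The genes at an unadjusted p under 0.05 without the block were *Plcb2* and *Adcy4*. *Plcb2*, a phospholipase C beta best known from blood cells, had 0.09, 0.07 and 0.02 FPKM in WT 1 to 3, against 0.26, 0.15 and 0.11 in *Npr1+/-* 1 to 3 (log2 fold change 1.69, standard error 0.62, unadjusted p = 0.0318, adjusted p = 0.999 from edgeR). *Adcy4*, an adenylyl cyclase, had 11.87, 9.25 and 8.65 FPKM in WT and 16.19, 14.23 and 14.35 in *Npr1+/-* aortas (log2 fold change 0.59, standard error 0.16, unadjusted p = 0.00962, adjusted p = 0.999 from edgeR). *Plcb2* had 8, 6 and 2 estimated counts in WT and 23, 19 and 10 in *Npr1+/-* aortas, so that it passed the filter on low counts through the *Npr1+/-* libraries, and WT 3 was below the 3 counts taken as the smallest signal. Of the 48 genes, these 2 were higher in *Npr1+/-* libraries without overlap (3.90% of all tested genes). With *Plcb2* among them, their number cannot be weighed against this share. Another adenylyl cyclase, *Adcy9*, was the 1 gene lower without overlap (3.58% of all tested genes), with 62.0, 56.1 and 69.6 CPM in WT and 52.9, 48.5 and 51.6 CPM in *Npr1+/-* aortas.

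Genes of these pathways went in both directions at high and low levels, with 28 of the 48 tested genes of the lists positive. Among the abundant ones, *Prkaca*, *Prkar2b* and *Adcy6* (WT means of 82.2, 69.7 and 38.6 FPKM) had positive log2 fold changes. The genes that follow had negative ones. *Plcb4* had 46.59, 69.48 and 75.23 FPKM in WT 1 to 3, and 29.63, 59.62 and 61.24 in the *Npr1+/-* libraries 1 to 3. Its log2 fold change of -0.36 ± 0.32 (standard error) had an adjusted p of 0.999 from edgeR. *Adcy5* had a log2 fold change of -0.45 (standard error 0.34), *Plcb1* of -0.35 (standard error 0.20) and the calcium release channel *Itpr1* of -0.26 (standard error 0.24), all with an adjusted p of 0.999 from edgeR. *Rgs5*, which shortens signals of Gq and Gi, had 153.93 and 178.58 FPKM in WT 1 and *Npr1+/-* 1 and between 365.66 and 713.32 in the other 4 libraries. For *Rgs5*, the range within a genotype was larger than the difference between the means of the genotypes.

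**Figure D5:**
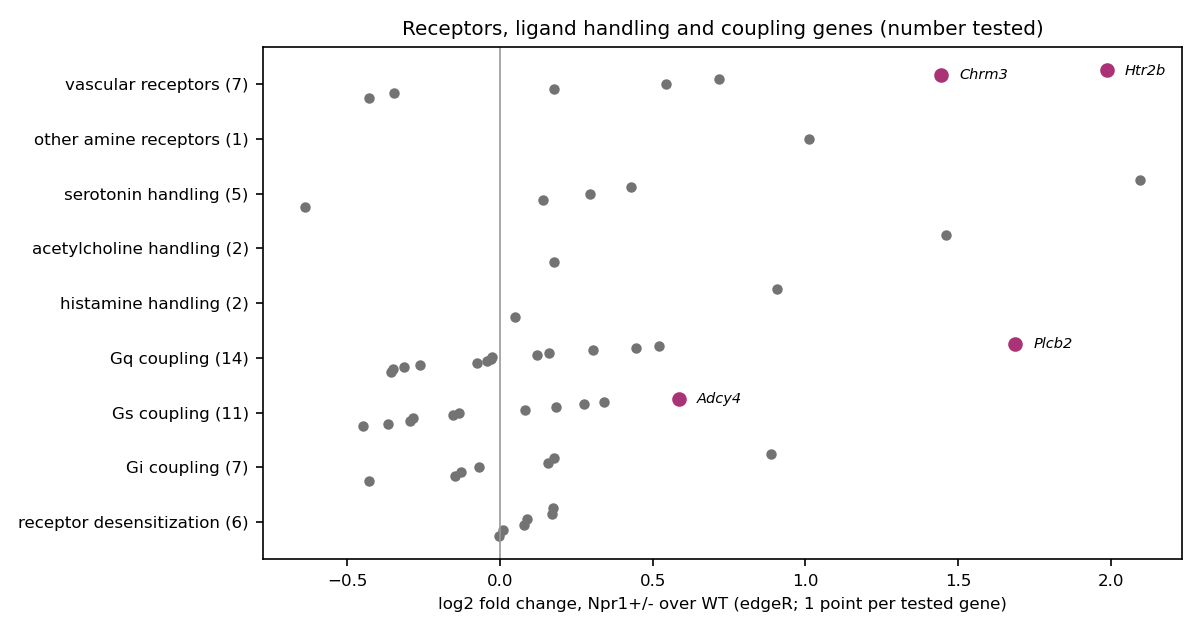
log2 fold change of *Npr1+/-* over WT for each tested gene of the receptors and of the lists of other receptors, ligand handling, G protein coupling and desensitization (number tested in brackets; large purple points, unadjusted p under 0.05 from edgeR). *Htr2b*, *Chrm3*, *Plcb2* and *Adcy4* are the purple points, all to the right of 0.

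For each tested receptor, the gene with the most similar pattern was sought among all tested genes by Pearson's correlation of log2 CPM over the 6 libraries, as a description of libraries that share composition and depth. *Htr1b* was nearest to *Mef2d* (r = 0.999, Spearman's rho = 1, and r = 0.999 without the 2 libraries numbered 1), a transcription factor of muscle. *Htr2a* was nearest to *Ltbp1* (r = 0.999, rho = 1), which binds latent TGF-beta in the matrix. *Htr2b* was nearest to *Gpr182* (r = 0.995, rho = 1), a receptor of endothelium, with 3.64, 1.27 and 1.18 FPKM in WT 1 to 3 compared with 10.37, 3.79 and 6.15 in *Npr1+/-* 1 to 3. *Chrm3* was nearest to *Sdc1* (r = 0.995, rho = 1), a heparan sulfate proteoglycan of the cell surface. *Chrm2* was nearest to *Add3* (r = 0.998, rho = 0.986), *Hrh1* to *Brpf3* (r = 0.982, rho = 1) and *Hrh2* to *Adam23* (r = 0.995, rho = 1). Of the 13938 tested genes, 983 had an r above 0.9 with *Htr1b*, 1425 with *Htr2a*, 239 with *Htr2b* and 83 with *Chrm3*. Each nearest gene was picked by its r over the same libraries. Its rho, and the r without some of them, are thus no separate test.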

How the data were processed

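RNA of whole aortas of male mice was sequenced on the BGISEQ-500 platform in 3 WT and 3 *Npr1+/-* libraries. Reads were cleaned with SOAPnuke, mapped to coding transcripts with Bowtie2 and quantified with RSEM, and the estimated counts deposited for 18191 genes are not normalized. FPKM, scaled by transcript length and library size, were deposited by the authors beside them. The ratio of counts to FPKM gave lengths within 10% of each other in all libraries for 92.1% of the 9994 genes with at least 100 counts in each. The submitters' processing notes name mm10. The authors' means of each genotype are in the same table and were not used.

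Gene identifiers were paired with RefSeq symbols on GRCm38.p6 for 18070 genes, and coordinates are those of GENCODE M21. Estimated counts were rounded and tested with edgeR 4.0.16 in R 4.3.3 (TMM, low-count filter with a minimum count of 10, quasi-likelihood test, Benjamini-Hochberg adjustment over 13938 genes). The thresholds of 0.05 and 0.5 follow the study. Alternatives were DESeq2 1.42.0, other scaling, no filter, limma 3.58.1 on log2(FPKM + 0.1) or log2(FPKM + 1) where the mean FPKM reached 0.1, the replicate block, an unadjusted threshold, and each library left out. Log2 CPM used a prior count of 2. The edgeR test was checked on simulated counts. Libraries with the same number deviated together from the genotype means. The correlations across genes were 0.64, 0.39 and 0.24 for the numbers 1, 2 and 3. The numbers come from the sample labels, which state no pairing, and were taken as pairs. WT 3 reached 0.44 with *Npr1+/-* 2, and WT 2 reached 0.37 with *Npr1+/-* 3. Only number 1 was thus set apart as a pair by these values.

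The receptors and lists were chosen with earlier results of these data known. The text names the receptors, genes of the lists, markers, *Npr1*, and for each tested receptor the gene of highest correlation. *Psmd1* and the non-coding genes were added because they overlap a receptor. Of the listed genes, *Htr1a*, *Htr2c* and *Aoc1* were not analysed here. Protein sequences were not used here.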

Additional observations from a re-analysis of the deposited data

How the results depend on the processing

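No gene was called by edgeR with DESeq2's size factors, with all genes kept regardless of counts or with the replicate block, nor by limma on FPKM, and with each library left out the number of genes called was 0 at the lowest and 0 at the highest. DESeq2 called 15 genes. Of the settings added after the data were seen, the replicate block without a filter called 42 genes, of which 1, *Htr3a*, belonged to the lists, DESeq2 with the replicate block called 268 genes, of which 1 was a receptor, *Htr2b*, and edgeR without both libraries numbered 1 called 1 gene, *Gm14434*, which is named after its values were seen. Among the markers, DESeq2 called *Nos3* and *Actc1*, and with the replicate block it also called *Pecam1*, *Tie1*, *Vwf*, *Adipoq*, *Cidec*, *Plin1*, *Col1a1* and *Mbp*. The block changed no other call among the receptors, lists and markers in edgeR with the filter or in DESeq2. At an unadjusted p under 0.05 there were 412 genes, 2 receptors and 2 list genes, and with the replicate block 1735 genes, 2 receptors and 10 list genes.

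Of 105 fits of the 7 tested receptors, 94 kept the direction without a call, 10 turned the direction for 3 receptors and 1 added a call. All 165 fits of the 11 list genes with a reported fold change kept the direction without a call. *Chrm2* turned to a log2 fold change of -0.32 with limma on log2(FPKM + 0.1), -0.032 on log2(FPKM + 1), -0.44 with the replicate block, -0.63 with the block and no filter, -0.86 with DESeq2 and the block, and -3.48 without both libraries numbered 1. With each library left out it ranged from -4.18 to 0.91, *Htr1b* from -0.66 to 0.12 and *Hrh2* from -0.14 to 1.03. The cause of the turns of *Chrm2* was not tested. Apart from *Htr1b*, no receptor reached 100 counts in a library.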

Other observations

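RNA of platelets and mast cells, which carry serotonin and histamine, was detected in all 6 libraries. Of 4 platelet markers, the FPKM of WT 1 to 3 summed to 113, 36.6 and 65.9, and that of the *Npr1+/-* libraries to 88.9, 26.0 and 51.4, lower in the *Npr1+/-* library of each number. All 4 had a negative log2 fold change with a median of -0.46, and none was called by edgeR. The order of the libraries by this sum was the same in both genotypes, with number 1 highest and number 2 lowest. Markers of mast cells (*Cpa3*, *Cma1*, *Tpsb2*, *Mcpt4*, *Kit* and *Ms4a2*) summed to 44.2, 34.0 and 21.4 FPKM in WT and to 51.5, 39.8 and 22.2 FPKM in *Npr1+/-* aortas, with number 1 highest and number 3 lowest in both genotypes. *Kit* went another way, with 1.87, 3.37 and 3.57 FPKM in WT and 3.89, 4.97 and 2.96 in *Npr1+/-* aortas, and *Ms4a2* had at most 4 counts. *Hdc*, at 2.46, 1.84 and 0.72 FPKM in WT and 5.52, 2.63 and 1.00 in *Npr1+/-* aortas, and *Hrh2*, at 0.42, 0.27 and 0.12 and at 0.70, 0.31 and 0.16 FPKM, were also highest in number 1 and lowest in number 3. How many other genes had this order was not tested.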
